A study of Mus musculus with 30 samples.

Results

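RNA of motor neurons from a mouse embryonic stem (ES) cell line named EH, labelled Mnx1KO, was compared with RNA of wild-type motor neurons. The comparison rests on 4 of the 30 libraries of the series, 2 from EH and 2 from wild type, all genes included, and these 4 were chosen from the labels and not from any measured value. ES cells of both genotypes had been taken through the same induction: retinoic acid (1 µM) and SAG (1 µM), an agonist of the Hedgehog pathway, were given from day 2, doxycycline (DOX, 1 µM) and the Notch pathway inhibitor DAPT (5 µM) were added from day 4, and cells were collected on day 6. The labels explain neither the name EH nor the change made in Mnx1, do not say whether EH is a single clone, and do not say whether replicates came from separate cultures, so each error below covers only the spread between these libraries. A further knockout line, HD, with 2 RNA libraries and the same genotype label, is used below as a reference for a few values. How much of the EH change HD shares is not described.

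Mnx1, also called Hb9, is a homeodomain transcription factor made by newborn spinal motor neurons, where it works with the LIM homeodomain factors Isl1 and Lhx3 and keeps interneuron programmes silent. Motor neurons use acetylcholine as their transmitter, send axons out of the spinal cord to muscle or to autonomic ganglia, and are sorted into columns along the body axis by Hox genes and their cofactors. Cultures induced from ES cells are mixtures, in which cells of other lineages can persist beside the neurons.

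Depth and spread differed between the groups. Total expected counts were 39761579 and 39685395 in the EH libraries and 13916957 and 13899577 in the wild-type libraries. The biological coefficient of variation, the relative spread of a gene between replicates that edgeR estimates, was 0.204 in the EH pair alone (0.189 after thinning EH to wild-type depth), 0.0832 in the wild-type pair and 0.159 in the 4 libraries together. Of 45706 genes listed, 16499 had counts high enough to be tested. Levels are given as TPM (a share of all transcripts that allows for gene length), differences as log2 fold changes of EH minus wild type ± standard error, and n is 2 libraries in each group throughout.

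Mnx1 RNA was not lost in EH. Mnx1 (ENSMUSG00000001566, chr5:29473823-29478470 in mm10) stood at 446 and 565 TPM in the EH libraries and at 395 and 343 TPM in the wild-type libraries. Both EH libraries lay above both wild-type libraries, and the log2 fold change of 0.46 ± 0.16 did not pass (edgeR's quasi-likelihood test with Benjamini-Hochberg adjustment over all genes, adjusted p = 0.108). With DESeq2 it did (0.48, adjusted p = 0.0436). A total over the gene leaves the deletion or edit itself unseen, and the knockout is not checked by it.

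The defining motor neuron genes were present at high levels in both groups. The LIM factor Lhx3 was at 298 and 324 TPM in EH and at 319.7 and 292 TPM in wild type. The vesicular acetylcholine transporter Slc18a3 was at 256 and 318 TPM in EH and at 350.1 and 309.9 TPM in wild type. The groups overlapped in TPM for both genes, and in CPM (counts scaled to library size), the scale of the overlap counts below, for Slc18a3 but not for Lhx3. Neither passed (log2 fold changes of 0.11 ± 0.12 for Lhx3 and -0.18 ± 0.15 for Slc18a3).

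Of 21 spinal motor neuron genes tested, 5 rose in EH and none fell, against 5.38% of all genes tested that rose and 7.48% that fell. The median log2 fold change of the 21 was 0.26, and that of all genes tested was 0.00. Isl1, the LIM factor that specifies motor neurons, was at 594 and 695 TPM in EH and at 363 and 283 TPM in wild type. All EH values of Isl1 were above all wild-type values, and differed by 0.89 ± 0.15 in log2 (edgeR adjusted p = 0.0231). Slit3 (chr11:35121456-35708507), a secreted axon guidance ligand, was at 199 and 255 TPM in EH and at 67.5 and 51.3 TPM in wild type, which is a difference of 2.00 ± 0.18 in log2 (edgeR adjusted p = 0.0111). Arhgap36, a regulator of protein kinase A signalling found in motor neurons, moved by the same size (2.00 ± 0.18) from 92.4 and 69.9 TPM in wild type to 274 and 362 TPM in EH. The related ligand Slit2 (0.87 ± 0.20) and the semaphorin receptor Nrp2 (1.07 ± 0.16) rose as well. The choline acetyltransferase gene Chat (-0.14 ± 0.18), the choline transporter Slc5a7 (0.26 ± 0.14), Isl2 (0.46 ± 0.22), Lhx4 (0.47 ± 0.15), Onecut2 (0.55 ± 0.26), Onecut1 (-0.38 ± 0.21), the trophic factor receptor Ret (-0.57 ± 0.19), Ache (-0.69 ± 0.22), Neurog2 (-0.27 ± 0.15), Esrrg (0.17 ± 0.17), Stmn2 (-0.01 ± 0.17), Cdh7 (0.39 ± 0.36) and Olig2 (-1.93 ± 0.49, below 1 TPM in every library) did not pass. In bulk RNA, a change in the number of cells of a type and a change in RNA per cell cannot be told apart.

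**Figure D1:**
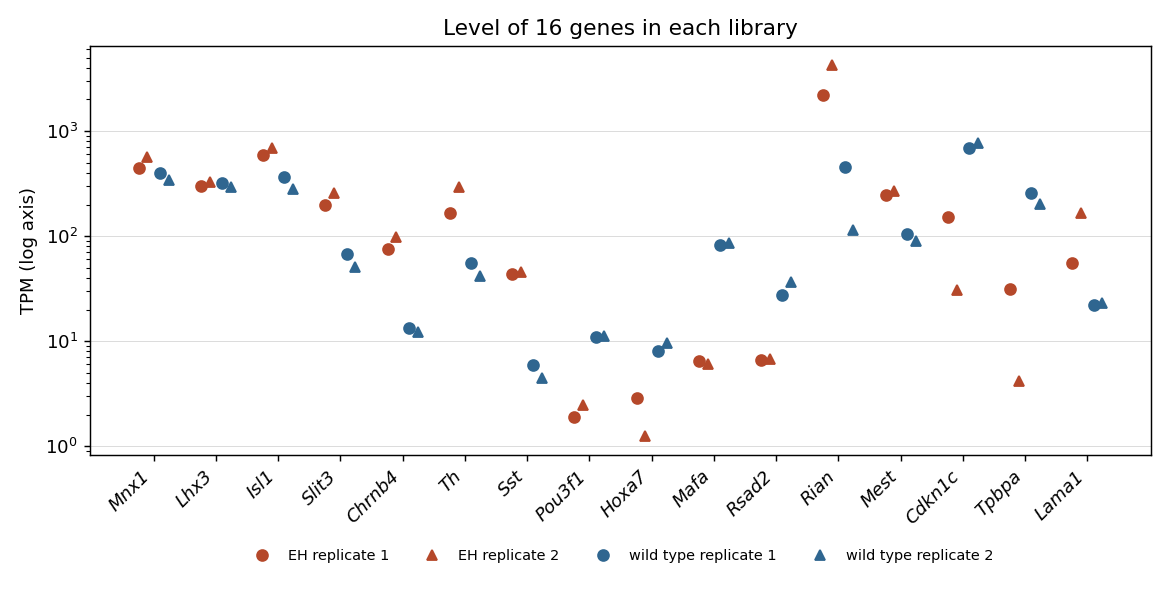
TPM of 16 genes (horizontal axis) in each library, on a log axis, with EH in red, wild type in blue, circles for replicate 1 and triangles for replicate 2. EH and wild-type points are interleaved for Lhx3, stand apart with EH above for Slit3, Chrnb4, Th and Sst, stand apart with EH below for Pou3f1 and Mafa, and the EH points are far from each other for Cdkn1c, Tpbpa and Lama1.

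In all, 2121 of 16499 genes (12.9%) were called by edgeR: 887 rose in EH and 1234 fell. A difference of 2-fold or more was seen in 1212 calls, or 7.35% of genes tested (410 rises, 802 falls). In CPM, the groups did not overlap in any of the 2121 calls, nor in 62.2% of all genes tested. The median size of a called difference was 1.12 on the log2 scale. The number of calls depended on which pair of libraries gave the spread. With 1 library of a group left out, the spread comes from the other pair alone (0.204 in EH, 0.0832 in wild type). Far fewer genes were called without a wild-type library, and more without an EH library. Staying called in such a fit is therefore no check of a gene, and no call is taken from it.

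Many of the rises lay on 1 chromosome. The genes of chromosome 11 stood higher as a group: the median log2 fold change of its 1238 tested genes was 0.41 (quartiles 0.10 and 0.65), and that of all other genes was -0.01 (quartiles -0.32 and 0.23). Of the chromosome 11 genes, 78.5% had a positive log2 fold change, against 48.5% elsewhere. Chromosome 11 held 7.5% of the genes tested and 36.6% of the rises, that is 325 of 887, and only 47 falls. The other autosomes and the X had medians between -0.09 (chromosome 7) and 0.08 (the X).

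**Figure D2:**
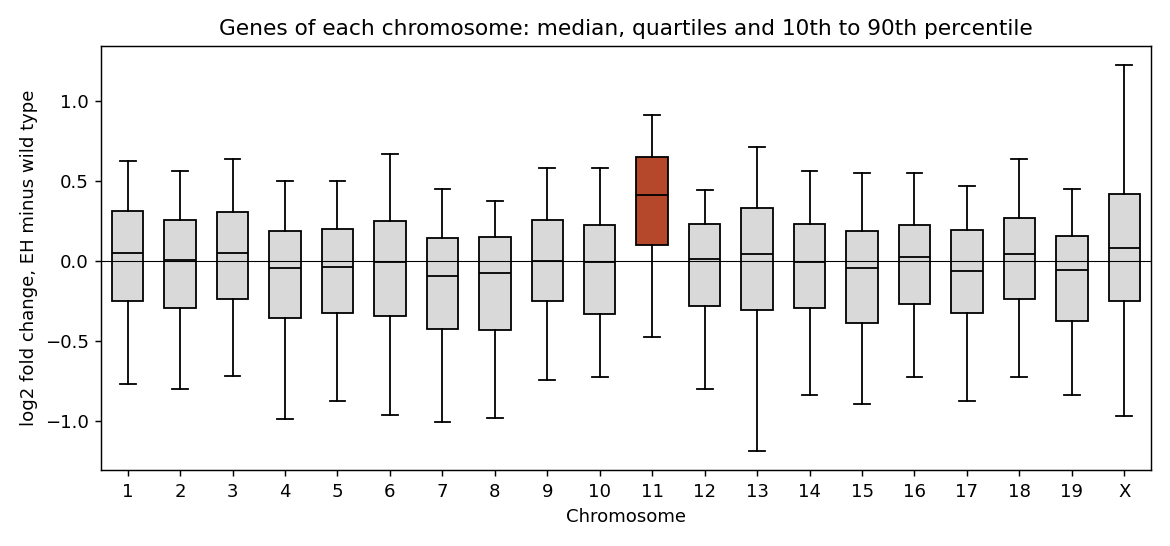
Log2 fold changes of EH minus wild type (vertical axis) for the tested genes of each autosome and the X (horizontal axis). Boxes span the quartiles with the median as a line, and whiskers run from the 10th to the 90th percentile. The box of chromosome 11, in red, has its lower quartile at 0.10, above the median of every other chromosome drawn.

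The shift ran along the whole of chromosome 11. All 13 windows of 10 Mb had a median log2 fold change between 0.29 and 0.72. Of 222 such windows on the other chromosomes, each with at least 20 tested genes, only 3 reached 0.289: X from 140 to 150 Mb (0.92), chromosome 6 from 10 to 20 Mb (0.33) and chromosome 15 from 0 to 10 Mb (0.30).

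Both EH libraries carried the shift. Expected counts were summed over the tested genes placed on the autosomes and the X. Of these counts, chromosome 11 gave 12.6 and 13.04% in the EH libraries. The shares were 10.1 and 9.73% in the wild-type libraries and 10.1 and 9.63% in the HD libraries. The median chromosome 11 gene lay 0.38 and 0.45 above the wild-type mean on the log2 CPM scale in EH, and 0.03 above and -0.04 from it in HD. The HD libraries carry the same genotype label as EH and did not show the shift. RNA does not count chromosome copies, and the number of copies of chromosome 11 was not tested.

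**Figure D3:**
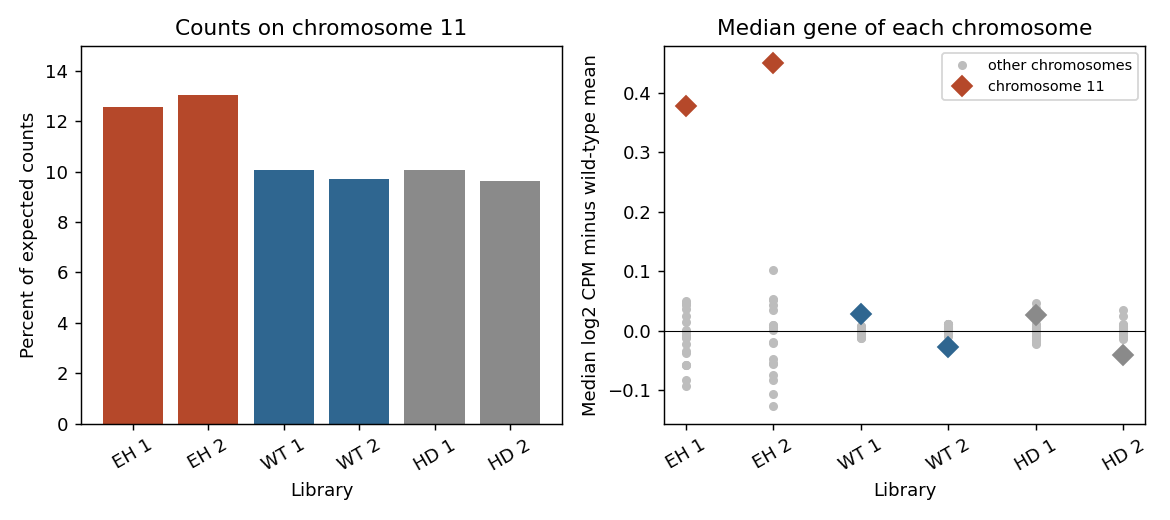
Left, the percent of each library's expected counts, over tested genes placed on the autosomes and the X, that fell on chromosome 11. Right, the median log2 CPM of each chromosome's genes minus the wild-type mean, with chromosome 11 as a diamond and the other autosomes and the X as grey points, per library. EH libraries stand at 12.6 and 13.04% on the left and at 0.38 and 0.45 on the right, above the wild-type and HD libraries.

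Several genes that rose in EH lie on this chromosome. They include Slit3, the Hox cofactor Meis1 (1.08 ± 0.21), the aromatic amino acid decarboxylase Ddc (1.34 ± 0.21), the retinoic acid receptor Rara (0.67 ± 0.12), the Wnt pathway genes Axin2 (1.04 ± 0.20), Znrf3 (1.09 ± 0.17) and Tcf7 (0.74 ± 0.16), Fgf18 (1.01 ± 0.19), the Polycomb subunit Suz12 (0.64 ± 0.14) and the ribosomal protein genes Rpl19 (0.53 ± 0.12), Rpl23 (0.54 ± 0.12) and Rps27a (0.55 ± 0.12). The last 3 made up all the rises among 36 ribosomal protein genes tested, and 2 others fell. That is 13.9% called, near the 12.9% of all genes. Of 4 Wnt pathway genes that rose, 3 were on chromosome 11, and the only rise of 19 retinoic acid pathway genes was Rara. The median rise of called genes was 0.68 on chromosome 11 and 1.25 elsewhere. Slit3, whose fold change exceeded the shift of its chromosome, is 1 of 48 chromosome 11 genes that rose at least 2-fold. Lhx1 (-1.05 ± 0.20), the netrin gene Ntn1 (-0.78 ± 0.13), the tight junction gene Cldn7 (-1.28 ± 0.23) and the ribosomal protein gene Rpl27 (-0.73 ± 0.15) fell against the direction of the chromosome. With chromosome 11 genes taken out before scaling, an analysis chosen after the shift was seen, 1490 of the remaining genes were called, 490 higher and 1000 lower.

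The window of the X that stood out held 38 tested genes, of which 13 rose and none fell. Luzp4, which encodes a leucine zipper protein, was at 7.28 and 8.83 TPM in EH and at 1.52 and 1.69 TPM in wild type (2.32 ± 0.25, edgeR adjusted p = 0.0144). Ott, a member of a family of X-linked germline genes, was at 13.3 and 17.0 TPM in EH and at 2.94 and 1.53 TPM in wild type (2.79 ± 0.32). Several other rises in the window are unnamed gene models of close sequence, and how reads were divided among them is uncertain. The protease gene Capn6 rose too, from 7.90 and 7.03 TPM in wild type to 19.96 and 20.5 TPM in EH (1.46 ± 0.14), while the neuronal microtubule gene Dcx in the same window was at 235 and 347 TPM in EH and 309.8 and 308 TPM in wild type (-0.05 ± 0.20). These X genes, Ott apart, were picked after their values were seen.

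Genes of the Y chromosome were higher in EH as well. Of 9 tested, 6 rose and none fell, with a median log2 fold change of 2.03. Eif2s3y, a translation initiation factor subunit, was at 56.2 and 63.5 TPM in EH and at 20.4 and 11.9 TPM in wild type. Both EH values were above both wild-type values (2.03 ± 0.21, edgeR adjusted p = 0.0128). The histone demethylase gene Uty (2.18 ± 0.24) and the helicase gene Ddx3y (1.61 ± 0.15) rose with it. Xist, the RNA that silences an X chromosome in female cells, was low everywhere, at 1.67 and 1.03 TPM in EH and at 1.96 and 3.29 TPM in wild type (-1.25 ± 0.28).

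Genes of motor columns and of cranial or visceral motor neurons changed in both directions, beside 5.38% of all genes that rose and 7.48% that fell. Of 14 motor column genes, 5 rose and 5 fell. Pou3f1, a POU factor of motor columns, was at 1.89 and 2.45 TPM in EH and at 11.1 and 11.2 TPM in wild type, with no overlap (-2.34 ± 0.20, edgeR adjusted p = 0.00959). Aldh1a2, which makes retinoic acid and marks limb-level columns (-2.48 ± 0.36), the transcription factor Runx1 (-1.63 ± 0.20), the semaphorin Sema3e (-2.10 ± 0.40) and the nitric oxide synthase Nos1 (-0.69 ± 0.13) also fell. The risen members were the Hox cofactors Pbx3 (0.74 ± 0.17), Meis1 and Meis2 (0.63 ± 0.14), the homeodomain factor Nkx6-1 (0.81 ± 0.19) and Fign (1.32 ± 0.20). Among 10 cranial and visceral genes 3 rose and 3 fell. Tbx20 (1.29 ± 0.31) and Insm1 (1.01 ± 0.23) were among the rises, and Gata2 (-1.68 ± 0.34), Gata3 (-1.52 ± 0.26) and Hand2, below 2 TPM in every library, fell. Gata2 and Gata3 also mark V2b interneurons and trophoblast.

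Nicotinic receptor and catecholamine genes included large rises, beside 5.38% of all genes that rose and 7.48% that fell. Of 9 nicotinic subunit genes tested, 3 rose and none fell, and these 3 are neighbours on chromosome 9 that encode a receptor type of autonomic ganglia. Chrnb4 (chr9:55028154-55048953) was at 74.97 and 99.01 TPM in EH and at 13.3 and 12.2 TPM in wild type, which is a difference of 2.79 ± 0.17 in log2 (edgeR adjusted p = 0.00529). Chrna3 beside it was at 174 and 264 TPM in EH and at 64.6 and 56.5 TPM in wild type (1.87 ± 0.21), and Chrna5 at 22.4 and 33.0 against 8.78 and 11.2 TPM (1.49 ± 0.24). In all 3 the EH values were above the wild-type values, and the median of the 9 was -0.08.

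Of 10 genes of noradrenaline and dopamine synthesis and transport, 3 rose (Th, Ddc and Dbh) and 2 fell. Tyrosine hydroxylase, Th, which makes the precursor of both transmitters, was at 165 and 293 TPM in EH and at 55.8 and 41.9 TPM in wild type (2.25 ± 0.29, edgeR adjusted p = 0.0167). The noradrenaline transporter Slc6a2 fell from 10.3 and 12.9 TPM to 2.70 and 1.73 TPM (-2.32 ± 0.28), and Gch1, which supplies the cofactor of Th, fell by 1.32 ± 0.20. The transporter and the cofactor enzyme thus stood lower in the same libraries in which Th stood higher.

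Genes of other transmitters included falls and rises, beside 7.48% of all genes that fell and 5.38% that rose. Of 24 glutamate genes, 6 fell and 1 rose, with a median of -0.28. Those that fell included the NMDA subunits Grin1 (-1.24 ± 0.17) and Grin2b (-1.60 ± 0.19) and the AMPA subunit Gria4 (-1.12 ± 0.12), and the one that rose was the metabotropic receptor Grm4 (0.59 ± 0.14). Of 18 GABA and glycine genes, 2 fell, Glra2 (-1.61 ± 0.22) and Gad1, which was at 0.15 and 0.16 TPM in EH and at 0.92 and 1.19 TPM in wild type. That is 11.1% called, below the 12.9% of all genes. Of 17 neuropeptide genes, 3 rose and 3 fell. Somatostatin, Sst, was at 43.2 and 45.5 TPM in EH and at 5.98 and 4.51 TPM in wild type, a rise with tight replicates in EH (3.08 ± 0.25, edgeR adjusted p = 0.00959). Scg2 (1.46 ± 0.35) rose, and Cartpt (-1.73 ± 0.31) and Vgf (-1.86 ± 0.25) fell.

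Posterior Hox genes, which give trunk cells their place along the body axis, lay lower in EH without exception. All 13 tested had a negative log2 fold change, with a median of -0.94, and 4 of them fell, against 7.48% of all genes. Hoxa7 was at 2.85 and 1.25 TPM in EH and at 8.09 and 9.70 TPM in wild type (-2.07 ± 0.35, edgeR adjusted p = 0.0241). Hoxc6 (-0.94 ± 0.20) and Hoxd8 (-1.07 ± 0.21) fell as well, and so did Hoxa6. By cluster, the median over anterior and posterior genes was -0.77 for Hoxa, -0.51 for Hoxb, -0.28 for Hoxc and -1.29 for Hoxd. The Hoxb cluster lies on chromosome 11, and 2 of its 10 tested genes were positive where 78.5% of that chromosome's genes were. Of 15 anterior Hox genes, Hoxa5 (-1.06 ± 0.15) and Hoxd1 fell and Hoxa2 rose (0.86 ± 0.20).

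Retinoic acid signalling drives Hox genes and motor neuron induction. Of its 19 tested genes 5 fell and 1 rose, against 7.48% of all genes that fell and 5.38% that rose. Crabp1, a retinoic acid carrier of the cytoplasm, was at 329.7 and 366 TPM in EH and at 915 and 786 TPM in wild type (-1.28 ± 0.12, edgeR adjusted p = 0.0117). The receptor Rxra (-0.87 ± 0.14), the retinal reductase Dhrs3 (-0.72 ± 0.15), Aldh1a2 and the retinoic acid degrading enzyme Cyp26b1 fell too. The Cyp26b1 values were 13.6 and 42.2 TPM in EH and 96.9 and 192 TPM in wild type (-2.36 ± 0.58), so its replicates differed widely in each group.

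**Figure D4:**
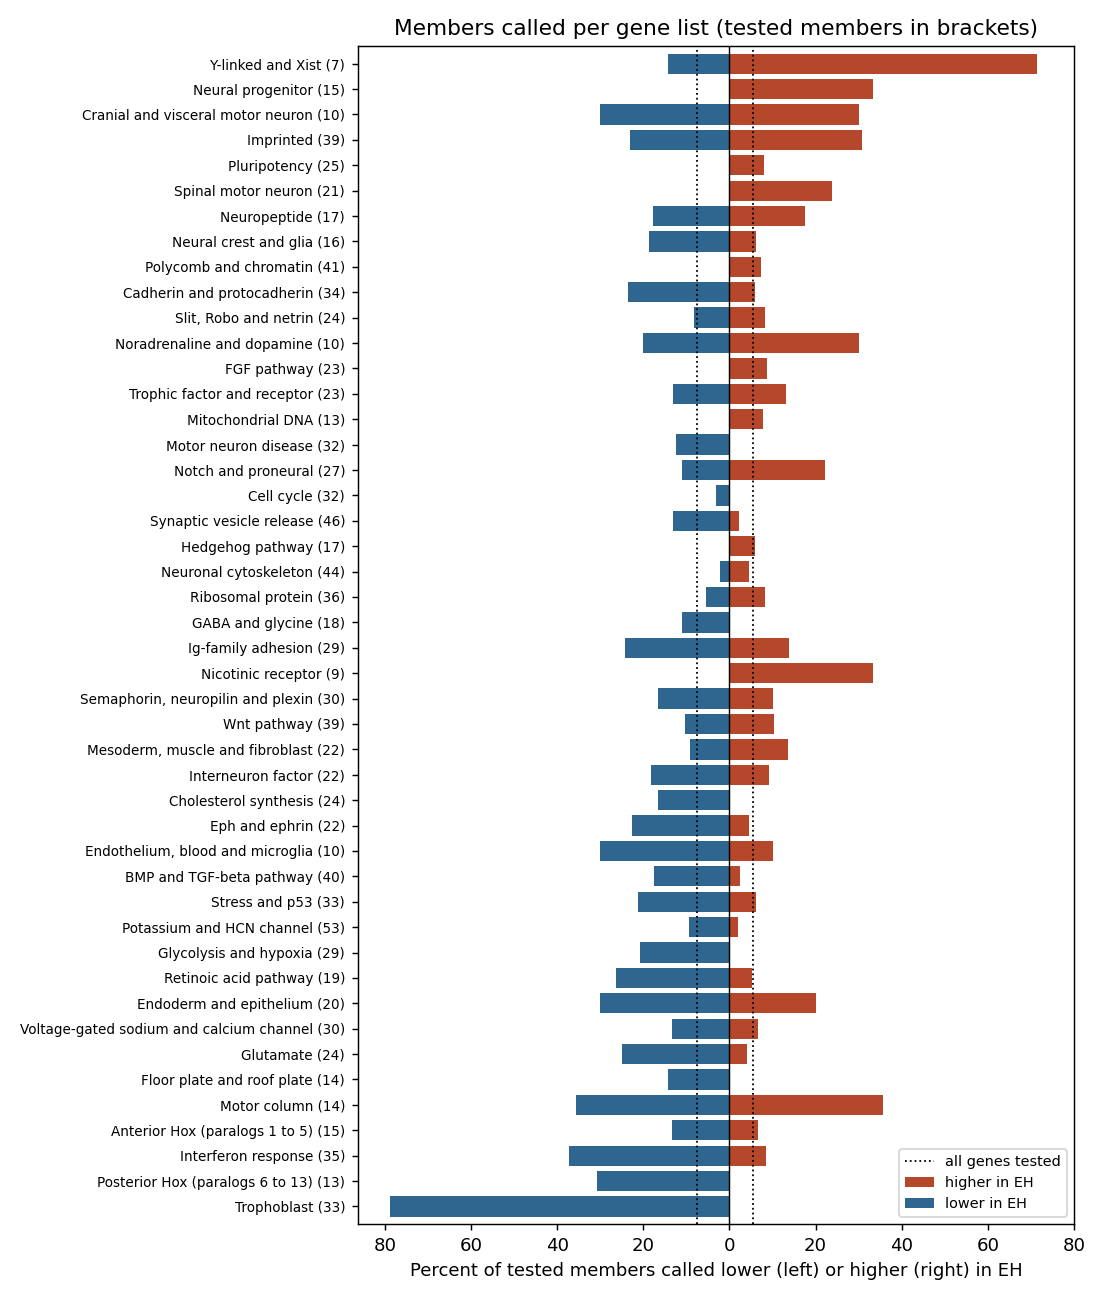
Percent of the tested members of each of 46 gene lists that were called lower (blue, to the left) or higher (red, to the right) in EH, ordered by the median log2 fold change of the list. Dotted lines mark the shares among all genes tested, 7.48% lower and 5.38% higher. The trophoblast list has the longest bar to the left, with 26 of 33 members lower, and the bars of motor column, imprinted and cranial motor neuron genes reach both ways.

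Neural progenitor genes rose where they passed the test, and Notch and proneural genes went both ways. Among all genes 5.38% rose and 7.48% fell. Of 15 progenitor genes, 5 rose and none fell, among them the progenitor factor Pax6 (1.40 ± 0.32), the intermediate filament Vim (0.95 ± 0.15), Sox9 on chromosome 11 (0.85 ± 0.20) and Nkx6-1. Of 27 Notch and proneural genes, 6 rose and 3 fell. The receptor Notch1 was at 7.89 and 7.32 TPM in EH and at 2.98 and 2.74 TPM in wild type (1.43 ± 0.13, edgeR adjusted p = 0.0117). Mfng, a glycosyltransferase that modifies Notch, was at 14.4 and 20.5 TPM in EH and at 4.59 and 3.04 TPM in wild type (2.31 ± 0.27). The proneural factor Neurod1 rose (1.56 ± 0.32), and so did the neuronal bHLH gene Nhlh1 (3.43 ± 0.51), while the ligands Dll4 (-1.64 ± 0.29) and Jag2 (-0.59 ± 0.11) fell. Of 22 interneuron factors, Bhlhe22 (2.43 ± 0.40) and Prrxl1 rose, and Lhx1, Pax2, Gata2 and Gata3 fell.

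Adhesion and guidance genes changed in both directions, beside 5.38% of all genes that rose and 7.48% that fell. Among 34 cadherins and protocadherins 2 rose and 8 fell, among 22 Ephs and ephrins 1 rose and 5 fell, among 30 semaphorin, neuropilin and plexin genes 3 rose and 5 fell, and among 29 adhesion genes of the immunoglobulin family 4 rose and 7 fell. Among 24 Slit, Robo and netrin genes 2 rose and 2 fell. The median log2 fold changes of these 5 lists lay between -0.17 (Ephs and ephrins) and 0.09 (cadherins and protocadherins). The type II cadherin Cdh22 was at 1.74 and 1.99 TPM in EH and at 9.63 and 8.20 TPM in wild type (-2.37 ± 0.20, edgeR adjusted p = 0.00959). Pcdh10 (-1.84 ± 0.16), the ephrin receptors Epha5 (-1.59 ± 0.15) and Epha10 (-1.38 ± 0.17), the repellent Sema3f (-1.32 ± 0.11) and Igsf8 (-1.44 ± 0.15) fell. Cntn2, an axonal glycoprotein also called TAG-1, went the other way, from 151 and 116 TPM in wild type to 363 and 571 TPM in EH (1.83 ± 0.25, edgeR adjusted p = 0.0176), and Sema3d (1.31 ± 0.22) and the large cadherin Fat4 (1.25 ± 0.15) rose.

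Pan-neuronal genes were also called in both directions, beside the same shares of all genes, 5.38% higher and 7.48% lower. Of 44 cytoskeleton genes 2 rose and 1 fell (median log2 fold change -0.04), and of 46 synaptic vesicle genes 1 rose and 6 fell (median -0.04). Of 53 potassium and HCN channel genes 1 rose and 5 fell (median -0.23, 16 positive), and of 30 sodium and calcium channel genes 2 rose and 4 fell (median -0.26, 9 positive). Calls made up 6.82% of the cytoskeleton, 15.2% of the synaptic vesicle and 11.3% of the potassium and HCN lists, below or near the 12.9% of all genes. They made up 20% of the sodium and calcium channel list. The neurofilament gene Nefm was at 987 and 1399 TPM in EH and at 635 and 479.8 TPM in wild type (1.12 ± 0.22), and the growth cone gene Gap43 rose by 0.74 ± 0.18. The SNARE gene Snap25, needed for transmitter release, was at 104 and 122 TPM in EH and at 183 and 203 TPM in wild type (-0.88 ± 0.13, edgeR adjusted p = 0.0189). Syt7 (-1.34 ± 0.16), Syn3 (-1.08 ± 0.20), Cplx1 (-0.81 ± 0.11) and Stmn3 (-0.72 ± 0.13) fell. For Nefm and Gap43 the EH values were the higher ones, and for Snap25 the lower ones, with no overlap.

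Trophic factor signalling split. Gfra3, a co-receptor of the GDNF family, was at 27.2 and 59.1 TPM in EH and at 7.10 and 6.79 TPM in wild type (2.65 ± 0.38, edgeR adjusted p = 0.0188), and Gfra1 rose (1.39 ± 0.27). The neurotrophin receptor Ntrk2 fell (-1.11 ± 0.17). In the BMP and TGF-beta pathway 7 of 40 genes fell and 1 rose, beside 7.48% of all genes that fell and 5.38% that rose. The inhibin subunit Inhbb was at 0.47 and 0.22 TPM in EH and at 5.22 and 6.40 TPM in wild type (-4.04 ± 0.39). The ligand Tgfb3 fell by 1.38 ± 0.20 and the target gene Id4 by 1.54 ± 0.17. The receptor Bmpr1a rose (0.60 ± 0.12).

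The largest falls included 2 genes outside these lists. Mafa, a large Maf transcription factor, was at 6.51 and 6.00 TPM in EH and at 82.3 and 85.3 TPM in wild type, which is -3.73 ± 0.16 in log2 (edgeR adjusted p = 0.00529). Mafa stood at 142 and 135 TPM in the HD libraries. Other genes that fell in EH were low in HD too, such as Pou3f1 at 1.83 and 1.97 TPM. Tnfrsf9, a receptor of the TNF family, was at 1.82 and 0.94 TPM in EH and at 28.8 and 21.5 TPM in wild type (-4.18 ± 0.33). The X-linked zinc finger gene Zxda had no count in either EH library and 178 and 208 counts in wild type, at least 363-fold lower when 3 counts are taken as the floor of the EH group, a bound for counting error only. Zxda has a near-identical copy, so its own share of those reads is uncertain.

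Imprinted genes, which are expressed from the maternal or the paternal copy alone, were called in 21 of 39 cases, 12 higher and 9 lower, against 12.9% of all genes. The rises included noncoding RNAs at very high level. Rian, a maternally expressed RNA of the Dlk1-Meg3 region (chr12:109603945-109661716), was at 2205 and 4303 TPM in EH and at 457 and 115 TPM in wild type (3.51 ± 0.67, edgeR adjusted p = 0.0293). Mirg from the same region was at 91.5 and 144 TPM in EH and at 23.1 and 6.47 TPM in wild type (3.05 ± 0.58). Both genes were lowest in wild-type replicate 2 and highest in EH replicate 2. In HD the Rian level was 539.6 and 157 TPM, close to wild type and as uneven.

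Peg13, a noncoding RNA of chromosome 15, was at 77.1 and 150 TPM in EH and at 11.6 and 4.75 TPM in wild type (3.82 ± 0.49). Its neighbour Trappc9, which overlaps it, fell (-0.71 ± 0.11), and how shared reads of the pair were assigned is not known. The hydrolase-like gene Mest was at 246 and 270.3 TPM in EH and at 104 and 89.4 TPM in wild type (1.37 ± 0.12, edgeR adjusted p = 0.00959), the zinc finger gene Plagl1 rose by 2.54 ± 0.29 and Zdbf2 by 1.83 ± 0.22. Mest and Plagl1 had all EH values above all wild-type values.

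Imprinted growth genes of distal chromosome 7 went the other way and differed between the EH replicates. Cdkn1c, a cell cycle inhibitor, was at 151 and 31.0 TPM in EH and at 695 and 775 TPM in wild type (-2.99 ± 0.68, edgeR adjusted p = 0.0428). The growth factor gene Igf2 was at 134 and 13.2 TPM in EH and at 826 and 966 TPM in wild type, and it did not pass (-3.60 ± 0.98, edgeR adjusted p = 0.0634). Slc22a18 of the same region fell by 1.89 ± 0.24, and Zim1, near the other end of the chromosome, by 3.47 ± 0.51. The Notch-like gene Dlk1, which is paternally expressed beside Rian, was at 134 and 9.56 TPM in EH and at 450 and 303 TPM in wild type (-2.94 ± 1.08, not passed). In Cdkn1c, Igf2 and Dlk1 alike, EH replicate 2 was the lowest library.

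Trophoblast genes were the list with the most falls. Trophoblast is the cell lineage of the placenta, which ES cells form rarely. Of 33 tested members of a list drawn up with earlier results known, 26 fell, none rose and none had a positive log2 fold change, with a median of -2.64. The summed level of the 43 listed genes was 1508 and 911 TPM in EH and 3233 and 3698 TPM in wild type, and 2 of them had no count in any library. Tpbpa, a spongiotrophoblast protein, was at 31.3 and 4.14 TPM in EH and at 256 and 203 TPM in wild type (-3.67 ± 0.82, edgeR adjusted p = 0.0403). The prolactin family gene Prl7b1 (-4.48 ± 0.54), Plac8 (-2.74 ± 0.32) and the syncytin gene Syna (-1.99 ± 0.15) fell. Prolactin, cathepsin and Serpinb9 genes lie in clusters of close copies, so their reads may be shared. With the whole list taken out before the fit, 2110 genes were called. The part of trophoblast cells in the other falls was not tested.

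Markers of other lineages were uneven, beside 5.38% of all genes that rose and 7.48% that fell. Of 20 endoderm and epithelium genes, 4 rose and 6 fell: the keratins Krt7 (-1.72 ± 0.32) and Krt18 (-1.16 ± 0.20) and the claudins Cldn6 and Cldn7 fell, while the basement membrane gene Lama1 and the endoderm factor Gata4 (2.37 ± 0.51) rose. Their summed level was 1278 and 966 TPM in EH and 1813 and 2187 TPM in wild type, and Hnf4a and Alb were too low to be tested. Of 10 endothelial, blood and microglial genes, 3 fell, among them Cdh5 (-1.92 ± 0.37) and Csf1r (-1.31 ± 0.17), and 1 rose. Among 22 mesoderm and fibroblast genes 3 rose and 2 fell, among 16 neural crest and glial genes 1 rose and 3 fell, and among 14 floor and roof plate genes 2 fell. Among 25 pluripotency genes 2 rose, those of the RNA-binding proteins Lin28a (1.13 ± 0.21) and Lin28b (1.06 ± 0.15). Calls made up 14.3% of the floor and roof plate list and 8% of the pluripotency list, near or below the 12.9% of all genes. Summed pluripotency levels were 424 and 311 TPM in EH and 281 and 295 TPM in wild type.

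Interferon response genes fell in 13 and rose in 3 of 35 cases, with a median of -0.73. Among all genes 7.48% fell and 5.38% rose. The antiviral enzyme Rsad2 was at 6.57 and 6.83 TPM in EH and at 27.6 and 36.8 TPM in wild type (-2.20 ± 0.16, edgeR adjusted p = 0.0094). The tetherin gene Bst2 was at 57.0 and 48.8 TPM in EH and at 176 and 199 TPM in wild type (-1.81 ± 0.15). Oas1a (-1.56 ± 0.17) and Samd9l (-2.46 ± 0.23) fell, and Irf9 (0.72 ± 0.15), Ifi27 (0.74 ± 0.16) and Trim25 on chromosome 11 (0.70 ± 0.15) rose. In Rsad2 and Bst2 both EH values were below both wild-type values.

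Stress, hypoxia and sterol genes fell where they changed, with few exceptions, beside 7.48% of all genes that fell and 5.38% that rose. Stress and p53 genes fell in 7 and rose in 2 of 33, including the haem oxygenase Hmox1 (-1.49 ± 0.27) and Gadd45b (-2.12 ± 0.31). Glycolysis and hypoxia genes fell in 6 of 29, with Ndrg1 going from 78.5 and 84.0 TPM in wild type to 30.6 and 28.4 TPM in EH (-1.45 ± 0.12, edgeR adjusted p = 0.00959) and Vegfa falling by 1.35 ± 0.19. Cholesterol synthesis genes fell in 4 of 24. Of 32 genes mutated in motor neuron disease or neuropathy, 4 fell and none rose, among them the small heat shock genes Hspb1 (-1.63 ± 0.28) and Hspb8 (-1.64 ± 0.22). That is 12.5% called, close to the 12.9% of all genes, and 16 of the 32 had a positive log2 fold change.

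The EH replicates stood farther apart than the wild-type replicates. On the log2 CPM scale, 1091 genes (6.61% of those tested) differed at least 2-fold between EH replicates 1 and 2, and 632 (3.83%) between the wild-type replicates. Among genes with a mean of at least 10 CPM the counts were 292 and 15. With EH thinned to wild-type depth they were 1055 and 315. The gap was lopsided: EH replicate 1 was the higher in 888 of the 1091, EH replicate 2 in 203. Of the 1091 genes, 162 (14.8%) were called between EH and wild type, close to the 12.9% of all genes. These are differences between single libraries and carry no test.

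Most cell cycle, pluripotency, trophoblast and floor and roof plate genes were higher in EH replicate 1. The median gap, replicate 1 minus replicate 2, was 1.04 over 32 cell cycle genes, 1.11 over 25 pluripotency genes, 1.15 over 33 trophoblast genes and 1.05 over 14 floor and roof plate genes, and between -0.16 and -0.03 for the same lists in the wild-type pair. Neural progenitor genes did not share this lean, with a median gap of -0.15 in the EH pair and 6 of 15 higher in EH replicate 1. The proliferation marker Mki67 was at 34.4 and 16.7 TPM in EH and at 18.96 and 18.5 TPM in wild type, so that wild type lay between the EH replicates. The pluripotency factor Pou5f1, at 22.5 and 6.38 TPM in EH and 11.5 and 13.5 TPM in wild type, behaved alike. Of the 32 cell cycle genes, 1 passed the test, Cdkn1c, which fell. Some neuronal lists leaned the other way, with median gaps of -0.37 for spinal motor neuron, -0.41 for synaptic vesicle and -0.42 for cytoskeleton genes, while glutamate genes were at -0.17 and cranial and visceral motor neuron genes at 0.64.

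**Figure D5:**
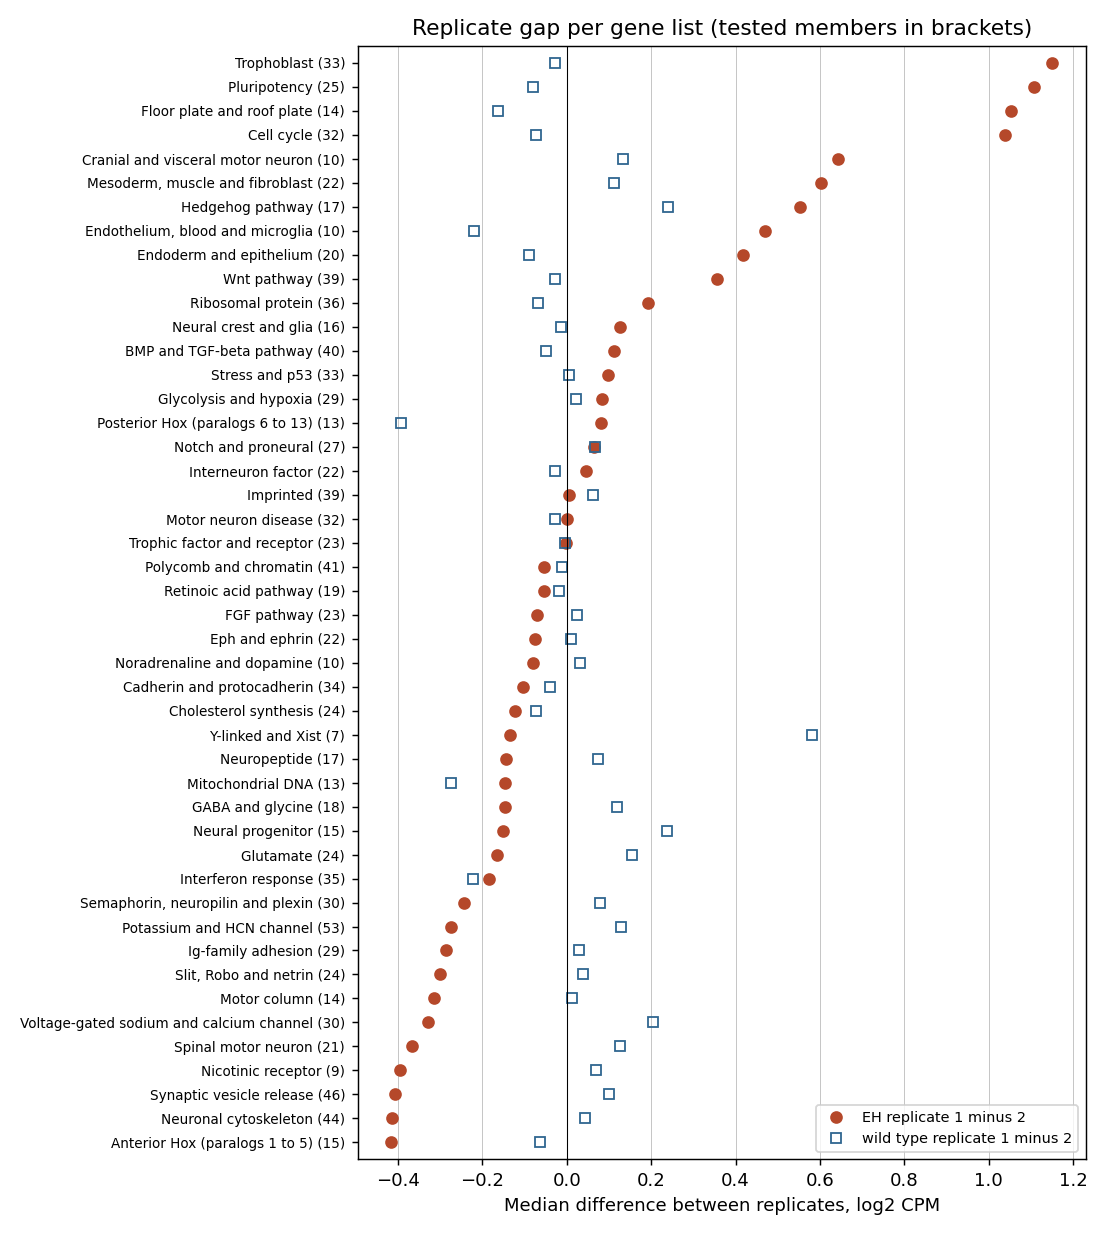
Median difference between replicates, replicate 1 minus replicate 2 in log2 CPM (horizontal axis), over the tested members of each of 46 gene lists, for the EH pair (red circles) and the wild-type pair (open blue squares). EH circles for trophoblast, pluripotency, floor and roof plate and cell cycle genes lie beyond 1, and those of spinal motor neuron, nicotinic receptor, synaptic vesicle and cytoskeleton genes lie near -0.4.

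Among genes with a mean of at least 5 CPM and a settled symbol, the 10 largest gaps with replicate 1 higher were Dlk1 (4.05), Igf2 (3.35), Tpbpa (2.91), the cartilage collagen gene Col2a1 (2.73), Psg29 (2.53), Id3 (2.45), Id1 (2.31), Cdkn1c (2.29), the Hedgehog target Gli1 (2.18) and the water channel gene Aqp4 (1.92), all on the log2 CPM scale. Id1 and Id3, targets of BMP signalling, were at 19.5 and 25.1 TPM in EH replicate 1 and at 3.84 and 4.67 TPM in EH replicate 2, with wild-type values between 18.5 and 30.1 TPM. For these 2 genes EH replicate 1 lay nearer to wild type than to EH replicate 2.

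With replicate 2 higher, the 10 largest gaps were Ccn2 (-2.40), Tspan8 (-2.31), the stomach genes Gkn2 (-2.23) and Gkn1 (-2.05), Hkdc1 (-1.97), Trpc5os (-1.86), whose reads may be shared with the overlapping gene Trpc5, the water channel gene Aqp8 (-1.82), the basement membrane genes Col4a1 (-1.74) and Lama1 (-1.58), and Cyp26b1 (-1.63). Lama1 was at 55.6 and 167 TPM in EH and at 22.3 and 23.3 TPM in wild type, and Col4a1 at 85.1 and 284 TPM in EH and at 72.7 and 68.8 TPM in wild type. Gata4, a factor of primitive endoderm, was at 6.53 and 19.5 TPM in EH and at 2.62 and 2.68 TPM in wild type. Lama1, Col4a1 and Gata4 are made by parietal endoderm, and all 3 were highest in EH replicate 2. The 20 endoderm and epithelium genes tested leaned the other way as a list. Their median gap was 0.42, and 12 were higher in EH replicate 1. At least 2-fold gaps were split, 3 with replicate 1 higher and 4 with replicate 2 higher. The part of parietal endoderm cells in the results for EH was not tested.

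EH replicate 2 was also the farther of the pair from wild type. In 1514 of the 2121 called genes (71.4%) its distance from the wild-type mean was the greater, against 59.5% of all genes tested. Both EH libraries lay on the same side of the wild-type mean in all 2121, which follows from the groups not overlapping in any of them.

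Wild-type binding and histone marks give another view of the called genes. Peaks are the authors' lists for wild-type motor neurons, with 1 list per mark over pooled or merged libraries, and gene starts were known for 12060 tested genes. A Mnx1 peak lay within 2 kb of the start in 15.0% of called genes with a start, in 20.8% of those that rose, in 10.7% of those that fell and in 21.2% of all 12060. Of chromosome 11 genes 26.4% had a Mnx1 peak, and of the rises elsewhere 12.2% did. Named genes with a peak included Arhgap36, Th, Nrp2, Meis2 and Lin28a among the rises and Hoxa5, Id4, Pcdh9 and Dhrs3 among the falls. Among genes called at least 2-fold the share was 10.3% of rises and 5.49% of falls.

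H3K27me3, the mark that Polycomb repressor complexes write, lay at many of the falls. It was found within 2 kb of the start of 52.5% of the genes that fell, 20.2% of those that rose and 23.1% of all. Genes with the mark were expressed at a lower level (median 6.96 TPM) than genes without it (24.7 TPM), so shares are also given by mean level over 3 classes of equal size. Among genes of low level (up to 9.24 TPM), 12.7% of marked and 5.03% of unmarked genes fell. At middle level the shares were 23.5 and 4.45%, and at high level (from 36.4 TPM) 22.03 and 4.68%. The shares of marked and unmarked genes that rose were 3.74 and 5.93% at low, 6.44 and 5.83% at middle and 5.95 and 5.58% at high level. No share was tested, since the peak lists give no replicates.

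Promoter letters were searched for TAATTA, the core word that homeodomain proteins of the Mnx1 type bind, which reads the same on both strands. RefSeq promoters (GRCm38.p6, 250 bases before to 50 after the start) held it in 5.29% of cases. Among the 2901 that a Mnx1 peak overlapped by at least 1 base, 2.24% held it. Of 204 called genes whose promoter overlapped a Mnx1 peak, 6 held the word, and in 3 of these it lay wholly before the start. The stretches around the word are shown for these 3 called genes, whose promoters hold it and overlap a Mnx1 peak. Whether the peak reached the word itself was not checked. The word is in capitals, and the letters run 5′ to 3′ on the strand of the gene. They come from chr11:60537485-60537570 (Alkbh5, plus strand), chr11:82780859-82780906 (Lig3, plus strand) and chrX:139871655-139871737 (Morc4, minus strand).
Alkbh5: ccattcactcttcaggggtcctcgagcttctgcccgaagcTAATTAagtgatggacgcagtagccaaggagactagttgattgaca
Lig3: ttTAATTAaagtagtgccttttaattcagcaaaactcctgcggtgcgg
Morc4: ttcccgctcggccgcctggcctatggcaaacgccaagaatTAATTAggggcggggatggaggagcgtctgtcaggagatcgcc

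The word began 158 bases before the start of the RNA demethylase gene Alkbh5, 248 bases before that of the DNA ligase gene Lig3 and 43 bases before that of the chromatin gene Morc4. Alkbh5 (0.50, edgeR adjusted p = 0.0374) and Lig3 (0.49, edgeR adjusted p = 0.0361) rose by about the shift of chromosome 11, on which both lie, and Morc4 on the X fell (-1.19, edgeR adjusted p = 0.0176). A match is a description of the letters and not of binding.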

How the data were processed

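RNA was poly(A)-selected and libraries were stranded, per the labels' protocols; mm10 was used, with RSEM, STAR and DESeq2 among the tools, per the submitters' processing notes. The deposited gene files give, per the file headers, an expected count and TPM for 45706 genes by Ensembl ID, of which 45143 matched a symbol. Whether counting used strand is not given in the sources used here. The authors' peak lists give a fold enrichment ratio and a −log10 q-value per peak.

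After rounding to whole numbers, the 4 libraries alone entered edgeR 4.0.16 in R 4.3.3, with filterByExpr, TMM factors and the quasi-likelihood test, with 2 residual degrees of freedom and a Benjamini-Hochberg adjusted p of at most 0.05 over 16499 genes. Standard errors are the log2 fold change over the square root of F. Alternatives used DESeq2 1.42.0, limma 3.58.1 on log2(TPM + 1), and Python 3.11.15 with pandas 2.3.3. In simulated counts, 100 genes were changed 2-fold and 100 others 4-fold, with the same spread given to both groups. Of these, 55% of 2-fold and 81% of 4-fold changes were recovered, with 19 false calls. The real pairs differed in spread (0.204 in EH, 0.0832 in wild type), so these figures need not hold for the real data. Gene positions and promoters are RefSeq's (GRCm38.p6), matched by symbol for 94.4% of tested genes; starts were known for 73.1%.

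The 46 gene lists and the rules were chosen with earlier results of these data known, so no list was tested. Named genes are Mnx1, the motor neuron list, the 15 largest rises and falls, up to 4 called members per list and direction, and the 10 largest EH gaps each way, with a mean of at least 5 CPM and a settled symbol. Hand2, Gad1, Hoxa6, Hoxd1, Pax2, Prrxl1, Mki67, Pou5f1, Luzp4, Capn6, Dcx, Dbh and the promoter genes were named after their values were seen. Some genes are not reported here.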

Additional observations from a re-analysis of the deposited data

How the results depend on the processing

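The precision is limited by 2 libraries a group and by the wide EH spread, and every fit below shares these 4 libraries. Against 2121 calls, 1324 were made at a mean of at least 10 CPM, 3301 with the HD libraries added to the fit, and 1056, 1025 and 0 by limma on log2(TPM + 1), log2(TPM + 0.1) and log2(TPM + 1) without a filter, the last with 5128 genes at an unadjusted p under 0.05. Leaving out 1 library gave 34 to 5870 calls. RLE, upper-quartile or total scaling, DESeq2, no count filter, thinning and taking out trophoblast genes kept the count within 1.5 times. The replicate numbers are shared by both groups in the labels, but the deviations of equal numbers correlated at -0.10 (-0.20 above 10 CPM), so they do not show a pairing: with the number as a replicate block 1309 genes were called, and with the EH numbers crossed in the block, an alternative chosen after seeing the data, 3499. Mnx1 passed with DESeq2 (0.48) and with the crossed block (0.46). Genes 2-fold apart between EH replicates numbered 292 above 10 CPM and 388 on log2(TPM + 1). The share of called genes with a Mnx1 peak was 27.7% counting the gene body and 10 kb, against 32.2% of all tested genes with a start. At a −log10 q of at least 10 it was 7.76%, against 10.6%. The median of chromosome 11 was 0.35 on log2(TPM + 1) with no filter, 0.37 on log2(TPM + 1), 0.46 with no count filter and 0.39 to 0.46 with 1 library left out, alternatives added after the shift was seen. Leaving out 1 library moved Mnx1 between 0.29 and 0.63. Signs were compared for the 237 named genes only, and turned only in those that did not pass with all 4 libraries. With 1 library left out, Aqp4 ranged from -0.84 to 1.08, Chat from -0.32 to 0.076, Col2a1 from -2.51 to 0.22, Esrrg from -0.045 to 0.38 and Stmn2 from -0.24 to 0.19. Stmn2 was at 0.0053 with DESeq2, 0.029 with no filter and 0.012 without chromosome 11.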
